A study of Homo sapiens with 3 samples.

Results

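The clusters described here lie on small nuclear RNAs (snRNAs) and small nucleolar RNAs (snoRNAs) that were crosslinked to FLAG-tagged DICER in human cells. They were taken from 4 deposited lists, 1 for each of 3 replicates and 1 for the whole series. A cluster belonged to the set when the files annotated it, off the mitochondrial chromosome, as a snoRNA transcript or a snRNA repeat, or named a gene beginning SNORD, SNORA, SCARNA, RNU or RNVU on the same strand, and named no tRNA or miRNA hairpin. The rule used no measured value. It found 135 of 11577 clusters in replicate 1, 97 of 18065 in replicate 2, 40 of 5099 in replicate 3 and 76 of 8469 in the series-wide list, or 348 of 43210 in all 4. All 3 samples were replicates of a single group, PAR-CLIP with RNase T1 in Flp-In HEK293 T-Rex cells, a human embryonic kidney line labelled FLAG:DICER. The labels give neither the promoter nor the level of the tagged protein, and no cells without it were analysed here. They also leave unsaid whether the replicates were grown separately, and the variation among them may be technical. No measure of RNA abundance was used, so more RNA and more binding per RNA cannot be told apart, and the labelled cell line was not checked against marker genes.

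DICER, a ribonuclease of the RNase III family, releases miRNAs from their hairpin precursors. snRNAs are the RNA parts of the spliceosome. U1, U2, U4, U5 and U6 serve the major spliceosome, U11, U12, U4atac and U6atac, with U5, serve the minor spliceosome that removes a rare class of introns, and U7 serves the processing of histone mRNA ends. snoRNAs mostly guide the chemical modification of ribosomal RNA. Most H/ACA box snoRNAs, which fold into hairpins, guide pseudouridylation, and most C/D box snoRNAs guide methylation of the ribose. Small Cajal body RNAs (scaRNAs) do the same for snRNAs. Most human snoRNAs are cut out of introns of host genes. A few snoRNAs are known to give rise to miRNAs.

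The border of the set runs through such snoRNAs. Clusters on 4 H/ACA snoRNAs were left out because the files also annotate a miRNA hairpin there: 3 clusters in replicate 1, 3 in replicate 2, 1 in replicate 3 and 3 in the series-wide list. Their hairpins are shown here, 5′ to 3′, because the files annotate miRNA hairpins, the class of RNA that DICER is known to cut, on H/ACA snoRNAs; capitals mark the mature miRNAs, and the sequences are from RefSeq (GRCh38.p14).
hsa-mir-664b, with SNORA36A: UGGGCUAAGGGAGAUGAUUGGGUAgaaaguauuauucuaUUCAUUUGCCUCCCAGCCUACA
hsa-mir-664a, with SNORA36B: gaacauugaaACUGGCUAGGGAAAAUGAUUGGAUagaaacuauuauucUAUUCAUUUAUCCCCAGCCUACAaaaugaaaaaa
hsa-mir-1248, with SNORA81: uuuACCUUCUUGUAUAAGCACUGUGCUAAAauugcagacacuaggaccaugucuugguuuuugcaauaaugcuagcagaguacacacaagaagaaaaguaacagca
hsa-mir-3651, with SNORA84: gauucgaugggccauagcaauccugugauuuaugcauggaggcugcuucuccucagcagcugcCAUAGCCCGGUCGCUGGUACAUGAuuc
The SNORA36A cluster held 91 and 52 conversions in replicates 1 and 2, and the SNORA36B cluster held 42, 37 and 15 in replicates 1, 2 and 3. In the series-wide list they held 121 and 82 conversions, where the highest H/ACA members of the set held 391 (SNORA33), 122 (SNORA31) and 94 (SNORA58). SNORA81 entered the set through replicate 3 alone, where a cluster with 11 conversions was not annotated with the hairpin. The SNORA81 cluster that was left out held 5 conversions in replicate 1, and that of SNORA84 held 7 in replicate 2.

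Each cluster carried a count of T-to-C conversions, the base changes that mark crosslinked uridines in PAR-CLIP. The lists held 1306125, 1060791 and 595487 conversions in replicates 1, 2 and 3, and 109404, 111514 and 29416 distinct reads. The set held 4432, 3571 and 2414 of the conversions, or 0.360% ± 0.0389, and 0.829% ± 0.317 of the clusters (SD, n = 3). By distinct reads it held 0.890% ± 0.279 (SD, n = 3), so its share of the conversions was below its share of the clusters and distinct reads in each replicate. The lists are not alike in make-up. In replicate 1, 73.3% of the set's clusters had reads from both sequencing runs, in replicate 2 87.6% and in replicate 3 all 40, against 51.2%, 92.2% and 99.5% of all other clusters.

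The snRNAs, led by U2, held more conversions than the snoRNAs in each replicate. snRNAs held 0.241%, 0.277% and 0.340% of all conversions in replicates 1, 2 and 3, and snoRNAs with scaRNAs 0.0982%, 0.0600% and 0.0658%. The difference was 0.211 percentage points ± 0.0656, with snRNAs higher in 3 of 3 replicates. The two-sided exact permutation test, which flips the signs of the differences, gave p = 0.25, the smallest that 3 replicates allow, and an adjusted p = 0.4 over 8 such tests. The major spliceosome held 0.167%, 0.242% and 0.300%, the minor spliceosome 0.0621%, 0.0285% and 0.0307%. That difference was 0.196 percentage points ± 0.0837, again with 1 sign in 3 of 3 replicates (exact sign-flip permutation p = 0.25, adjusted p = 0.4). It was 0.375 by distinct reads, and 0.124 when clusters known by their repeat annotation alone were left out. Neither difference can pass a threshold of 0.05 with 3 replicates. U2 loci alone held 0.131%, 0.206% and 0.249% of all conversions, most of the major spliceosome's share in each replicate. The comparison of major with minor spliceosome was not made without U2.

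H/ACA box snoRNAs held more conversions than C/D box snoRNAs in each replicate, while the order of their cluster numbers changed between replicates. H/ACA clusters held 892, 483 and 326 conversions in replicates 1, 2 and 3, and C/D clusters 355, 122 and 66. As shares of all conversions these were 0.0562% ± 0.0114 for H/ACA and 0.0166% ± 0.00918 for C/D (SD, n = 3), a difference of 0.0396 percentage points ± 0.00499 with H/ACA higher in 3 of 3 replicates (exact sign-flip permutation p = 0.25, adjusted p = 0.4). By distinct reads the difference was 0.0220 percentage points (exact sign-flip permutation p = 1) and H/ACA was lower in replicate 1, with 0.186% against 0.300% for C/D. The numbers of clusters were 30, 28 and 15 for H/ACA and 47, 17 and 3 for C/D. H/ACA clusters were thus fewer than C/D clusters in replicate 1 and more numerous in replicates 2 and 3, and their share of all clusters did not differ beyond the replicate spread (0.0498 percentage points ± 0.191, exact sign-flip permutation p = 0.75, adjusted p = 0.857). The scaRNAs had 6, 4 and 0 clusters with 36, 31 and 0 conversions.

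**Figure D1:**
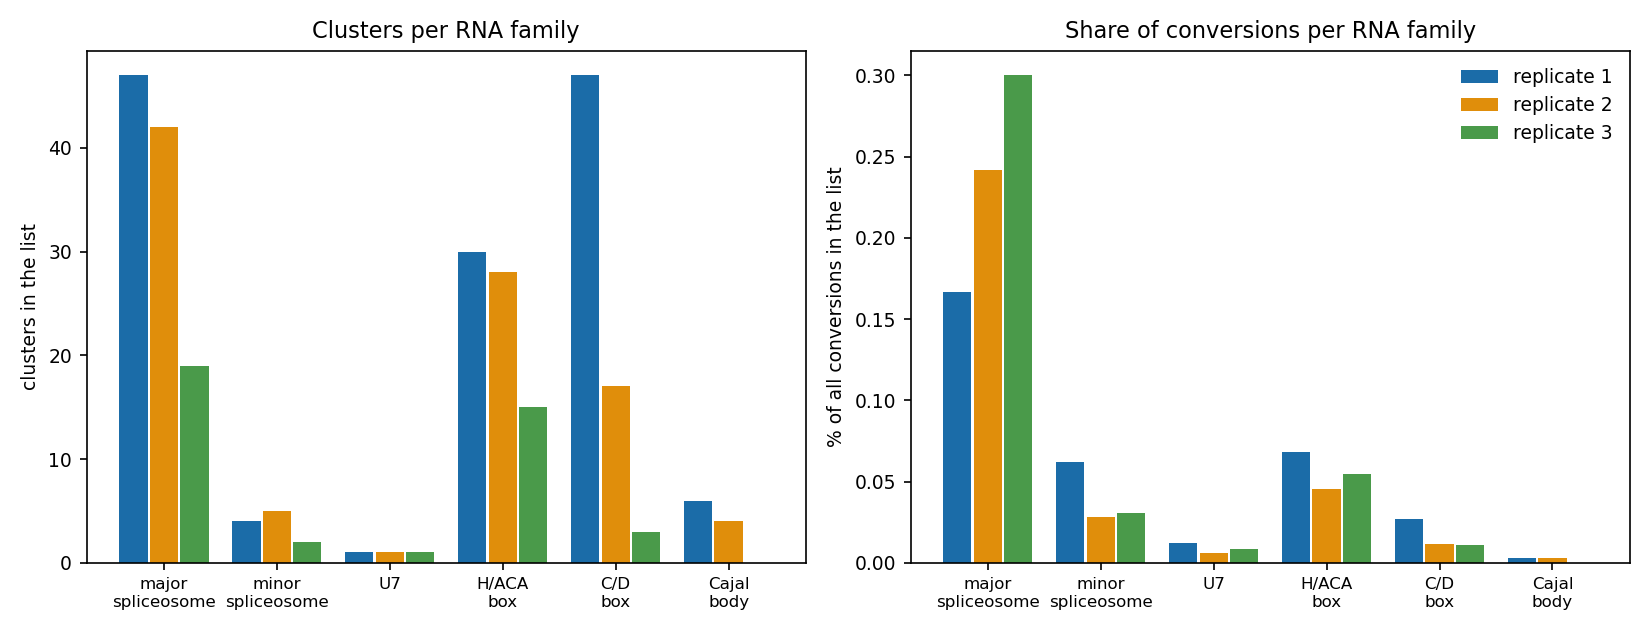
Number of clusters (left, counts) and share of all conversions in the list (right, percent) for the RNA families, with 1 bar for each replicate. C/D box clusters number 47 in replicate 1, 17 in replicate 2 and 3 in replicate 3, while the major spliceosome holds the most conversions of the families in each replicate.

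Among the snRNAs, RNU2-2 held more conversions than any other RNA of the set in each of the 4 lists. RNU2-2 is a gene for U2, the snRNA that pairs with the branch point of introns, and lies on the same strand as WDR74 (hg19 chromosome 11, 62609076 to 62609233, minus strand, annotated as exon). It had 1225, 1389 and 1056 conversions in replicates 1, 2 and 3, or 27.6%, 38.9% and 43.7% of the set's conversions. The counts lie close together although the lists differ in size. A U2 copy on chromosome 10 (103124604 to 103124645, minus strand), which the files list as a gene named U2 opposite BTRC, had 73, 687 and 377. It was thus low in replicate 1 and ranked next to RNU2-2 in the series-wide list, with 868 conversions against 2844. A U2 copy on chromosome 2 with no gene on its strand, opposite an intron of ASB3 (54053028 to 54053058, plus strand), was highest in replicate 1, with 187, 14 and 23 conversions. In all, U2 loci held 0.196% ± 0.0596 of conversions (SD, n = 3), of which RNU2-2 held 0.134% ± 0.0419 and loci without an RNU2 gene symbol, the chromosome 10 copy included, 0.0615% ± 0.0209. The files do not say how reads that match several U2 copies were placed, so the split between the loci is uncertain. The copies also differed in conversions per read: RNU2-2 had 0.857, 0.947 and 0.997, the chromosome 10 copy 0.493, 0.949 and 1.00, and the chromosome 2 copy 0.129, 0.159 and 0.303.

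The other major snRNAs held far fewer conversions than U2, with U5 next in order of the mean. U5, which holds the exons in place during splicing, had 0.0181% ± 0.00133 of conversions, and U1, which pairs with the 5′ splice site, had 0.0138% ± 0.0124 (SD, n = 3). U4, which keeps U6 inactive until splicing starts, had 0.00748% ± 0.00161, and U6, part of the catalytic centre, had 0.00141% ± 0.00129. U1 ranged from 0.00537% to 0.0280% and overlapped both U5 and U4, while U5 was above U4, and U4 above U6, in each replicate. No cluster carried an RNU1 or RNVU symbol other than a pseudogene. The U1 clusters lay on U1 copies without such a symbol and on the pseudogene RNU1-11P, which had 7, 2 and 72 conversions. Some of the copies, such as those with TEX14 and FILIP1, had another gene on the same strand. A U1 copy on chromosome 1 (148241509 to 148241575, plus strand) had 50, 17 and 22. The U1 clusters were thus spread over several loci, with the highest single value in replicate 3. As for U2, it is not stated how reads that match several U1 loci were placed, so the loci they came from are uncertain.

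RNU4-2, a U4 gene on chromosome 12 (120729560 to 120729684, minus strand), had 71, 76 and 38 conversions, and its neighbour RNU4-1 had 11 and 23 in replicates 1 and 2 and no cluster in replicate 3. U5 was represented by several genes and by pseudogenes. Loci with a pseudogene symbol or no symbol held 79, 50 and 14 of the 240, 204 and 99 U5 conversions in replicates 1, 2 and 3. The pseudogene RNU5E-6P had 56 and 31 in replicates 1 and 2 and no cluster in replicate 3, and RNU5A-8P had 13, 7 and 14. RNU5A-1 (chromosome 15, 65588394 to 65588505, plus strand) had 39, 13 and 61 conversions and RNU5E-1 had 8, 7 and 24, both highest in replicate 3. By distinct reads both were highest in replicate 1, with 43, 11 and 9 for RNU5A-1 and 46, 2 and 2 for RNU5E-1. RNU5B-1, with 43 and 70, RNU5D-1, with 57 and 27, and RNU5F-1, with 14 and 32, had clusters in replicates 1 and 2 and none in replicate 3. U6 had RNU6-6, with 12 and 7 conversions in replicates 1 and 2, and a few copies. Single clusters at separate places on chromosome 5 carried the names RNU5D-1 and RNU5E-1 together but no U5 repeat. The cluster of replicate 2 (80608607 to 80608633) had 5 conversions. That of the series-wide list (80517514 to 80517547) had 9. They count among U5 only through those names.

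The minor spliceosome was represented by RNU12 and RNU11 in all 3 replicates and by RNU4ATAC in 2. RNU12 encodes U12, which pairs with the branch point of minor introns (chromosome 22, 43011255 to 43011406, plus strand). It had 486, 216 and 179 conversions and held 0.0292% ± 0.00846 of all conversions (SD, n = 3), above U5 in each replicate. By distinct reads the order held in replicate 3 alone, with 93, 68 and 18 for RNU12 and 221, 95 and 13 for U5. RNU11, which encodes U11 and takes part in recognising the 5′ splice site of those introns (chromosome 1, 28975136 to 28975254, plus strand), had 315, 74 and 4. It thus ranged far more widely than RNU12, and its mean share of 0.0106% ± 0.0121 was smaller than its SD. RNU4ATAC had 10 and 12 conversions in replicates 1 and 2, and no cluster named U6atac was found. RNU7-1, the U7 gene (chromosome 12, 7053006 to 7053050, plus strand, overlapping C12orf57), had 160, 67 and 52 conversions, or 0.00910% ± 0.00298 (SD, n = 3).

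**Figure D2:**
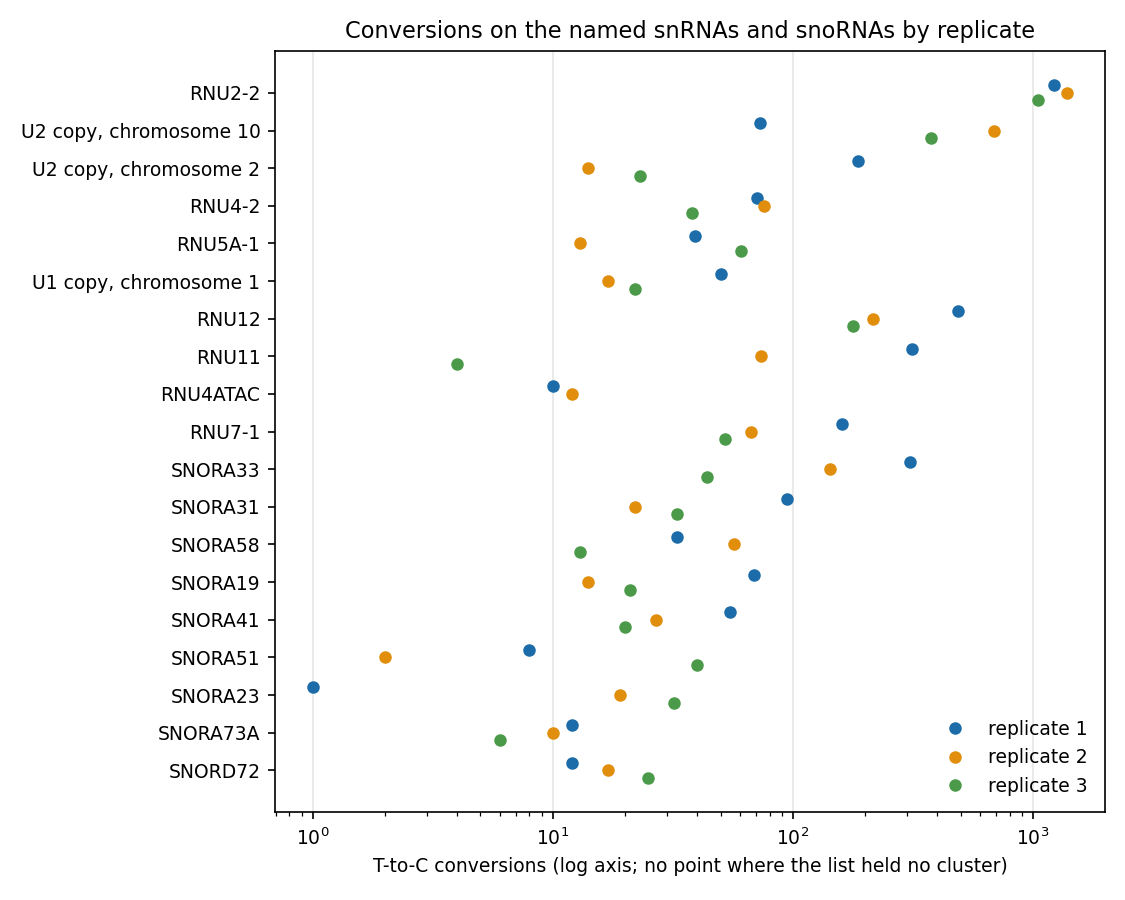
Conversions on a log axis for 19 snRNAs and snoRNAs in replicates 1, 2 and 3, with no point where a list held no cluster. RNU2-2 lies between 1056 and 1389 in the 3 replicates, while RNU11 ranges from 4 to 315 and the U2 copy on chromosome 10 from 73 to 687.

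Of the 40 H/ACA snoRNAs with a cluster in any list, 9, or 22.5%, had a cluster in all 3 replicates. In the whole set it was 23 of 163 RNAs, or 14.1%. Of all genes with an exonic cluster outside these small RNAs, tRNAs and miRNA hairpins in some replicate, 14.4% had one in all 3. H/ACA snoRNAs were counted by name, whether or not their clusters overlapped. The 40 names include SNORA7, SNORA71, SNORA73 and SNORA74, which matched no RefSeq symbol. SNORA33, in an intron of the ribosomal protein gene RPS12 (chromosome 6, 133138425 to 133138487, plus strand), held the most conversions, with 307, 143 and 44 in replicates 1, 2 and 3. SNORA31, within TPT1 (chromosome 13, 45911614 to 45911674, minus strand), had 95, 22 and 33. SNORA58, within UBAP2L, had 33, 57 and 13. Like most H/ACA snoRNAs they are guides for pseudouridylation, and the replicate with the highest count differed between SNORA58 and the first pair. SNORA19, within EIF3A, had 69, 14 and 21 conversions. SNORA41, within EEF1B2, had 55, 27 and 20. SNORA51, within NOP56, the gene of a C/D box snoRNP protein, had 8, 2 and 40. For SNORA51 replicate 3 was the highest by conversions, with 0.303 conversions per read there and 0.0672 and 0.0215 in replicates 1 and 2. Its distinct reads were 9, 14 and 6, lowest in replicate 3. SNORA23, within IPO7, had 1, 19 and 32 conversions, and its cluster in replicate 1 did not overlap those of the other replicates. In replicate 3 the clusters of SNORA31, SNORA58, SNORA19, SNORA41 and SNORA23 each rested on 2 distinct reads and 1 conversion position. Their counts there are thus mostly copies of the same reads. SNORA73A, also called U17, takes part in cleaving the ribosomal RNA precursor and had 12, 10 and 6 conversions within SNHG3 and RCC1. Its clusters in replicates 1 and 2 did not overlap each other, and replicate 3 had a cluster at each place.

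Of 50 C/D box RNAs, 2, or 4%, had a cluster in all 3 replicates and 32 had one in replicate 1 alone. In the whole set, 23 of 163 RNAs, or 14.1%, had a cluster in all 3, and 59 had one in replicate 1 alone. Clusters of replicate 1 without a match were common outside the set too: 37.6% of all other clusters there were overlapped in another replicate. SNORD72, within RPL37 (chromosome 5, 40832761 to 40832833, minus strand), had 12, 17 and 25 conversions. SNORD118, the U8 RNA needed for maturation of the large ribosomal subunit, had 27 conversions in each of replicates 1 and 2 and no cluster in replicate 3. U3, which serves the small subunit, appeared only as copies without a symbol, the strongest on chromosome 8 with 37 and 19 conversions in replicates 1 and 3. Of the 8 scaRNAs, 7 had a cluster in 1 replicate and SCARNA16 in 2, with 1 and 5 conversions.

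Many C/D clusters of replicate 1 had many reads and few conversions. No cluster in any list had more conversions than reads, so the ratio runs from 0 to 1. H/ACA clusters had 0.659, 0.779 and 0.780 conversions per read in replicates 1, 2 and 3, and C/D clusters 0.169, 0.510 and 1.00, the last over 3 clusters. In replicate 1, 17 of the 47 C/D clusters and 2 of the 30 H/ACA clusters had a single conversion. In replicate 1, 25.5% of C/D clusters were overlapped in another replicate, against 60.0% of H/ACA clusters and 37.6% of all other clusters. The 35 C/D clusters of replicate 1 that no other replicate overlapped had 0.120 conversions per read, and the 12 that another replicate overlapped had 0.294. In replicate 2 the order was the opposite, with 0.720 for the 7 C/D clusters not overlapped and 0.455 for the 10 overlapped. H/ACA clusters not overlapped had 0.513, 0.911 and 1.00 in replicates 1, 2 and 3, against 0.697, 0.757 and 0.729 for those overlapped. All other clusters were not split in this way. SNORD76, within GAS5, had 1 conversion in 274 reads in replicate 1, and SNORD18C had 1 in 144. Major snRNA clusters also had fewer conversions per read in replicate 1, at 0.410, than in replicates 2 and 3, at 0.850 and 0.867. All other clusters had 0.643, 0.535 and 0.598, and in them replicate 1 was the highest. These are ratios of sums, in which clusters with many reads weigh most. The median cluster had 0.591, 0.80 and 1.00 conversions per read for the major spliceosome, 0.645, 1.00 and 1.00 for H/ACA, 0.147, 1.00 and 1.00 for C/D, and 1.00 in each replicate for all others. By medians all other clusters were thus at the upper limit in each replicate, and C/D was the lowest of these in replicate 1. T-to-C changes made up 54.0%, 71.8% and 100% of the edits that the files list for C/D clusters, against 80.4%, 82.1% and 78.0% for H/ACA clusters, and 81.0%, 70.6% and 75.3% in all other clusters. These ratios were chosen after the data were seen and were not tested.

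**Figure D3:**
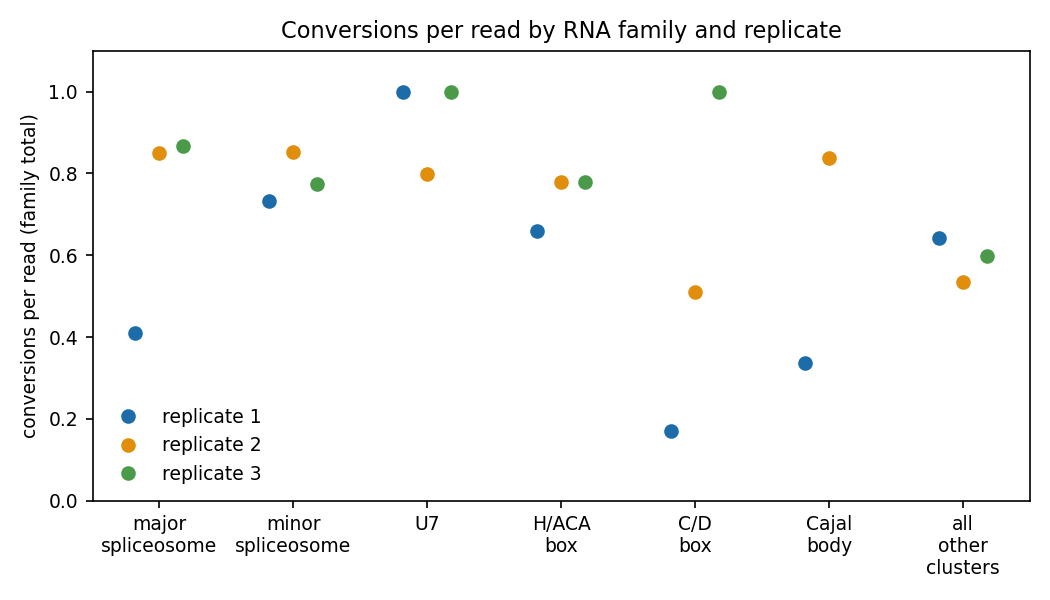
Conversions per read, summed over the clusters of each RNA family and over all other clusters, with 1 point for each replicate and no point where a list held no cluster. C/D box clusters stand at 0.169 in replicate 1 against 0.510 and 1.00 in replicates 2 and 3, while H/ACA clusters lie between 0.659 and 0.780.

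Of the 23 RNAs with a cluster in all 3 replicates, 6 had their ccr, an attribute of the files, at the identical nucleotide in each, and 8 within 2 nt. The files do not define ccr; in PAR-CLIP it is the usual short form for the crosslink-centred region, placed at the nucleotide with the most conversions. For an RNA with several clusters, the one with the most conversions was used. The 6 were RNU2-2 (62609120), the U2 copies on chromosomes 10 (103124626) and 2 (54053042), RNU12 (43011367), RNU11 (28975223) and RNU7-1 (7053026), all of them snRNAs. SNORA33 and SNORA19 shifted by 1 nt. The other 15 shifted by more than 2 nt, RNU4-2 by 64 and SNORA41 by 49. The RNAs with the steady position were thus also those with many conversions: 6 of the 7 with the highest series-wide conversions had a shift of 0, and SNORA33, the other, a shift of 1. The same position is not particular to the set. Of overlapping clusters in replicates 1 and 2, 31.7% of 63 had the same ccr in the set and 47.0% of 4058 among all others. The shares were 40.0% of 25 against 48.9% of 1595 for replicates 1 and 3, and 44.0% of 25 against 55.5% of 1743 for replicates 2 and 3. These pairs share replicates and were not tested.

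RNU2-2, RNU12 and RNU11 were each covered in more than 1 segment. RNU2-2 had a single cluster of 157 nt in replicate 2, clusters of 97 and 40 nt in replicate 1, and clusters of 65, 39 and 26 nt in replicate 3. The steady position lay in the longest of these, which held 937 of the 1056 conversions in replicate 3. On RNU12 a segment of 78 nt in replicate 1, 86 nt in replicate 2 and 46 nt in replicate 3 held 471, 167 and 179 conversions. A shorter RNU12 segment nearer the 5′ end held 15 and 49 in replicates 1 and 2, with the same ccr (43011264) in both.

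**Figure D4:**
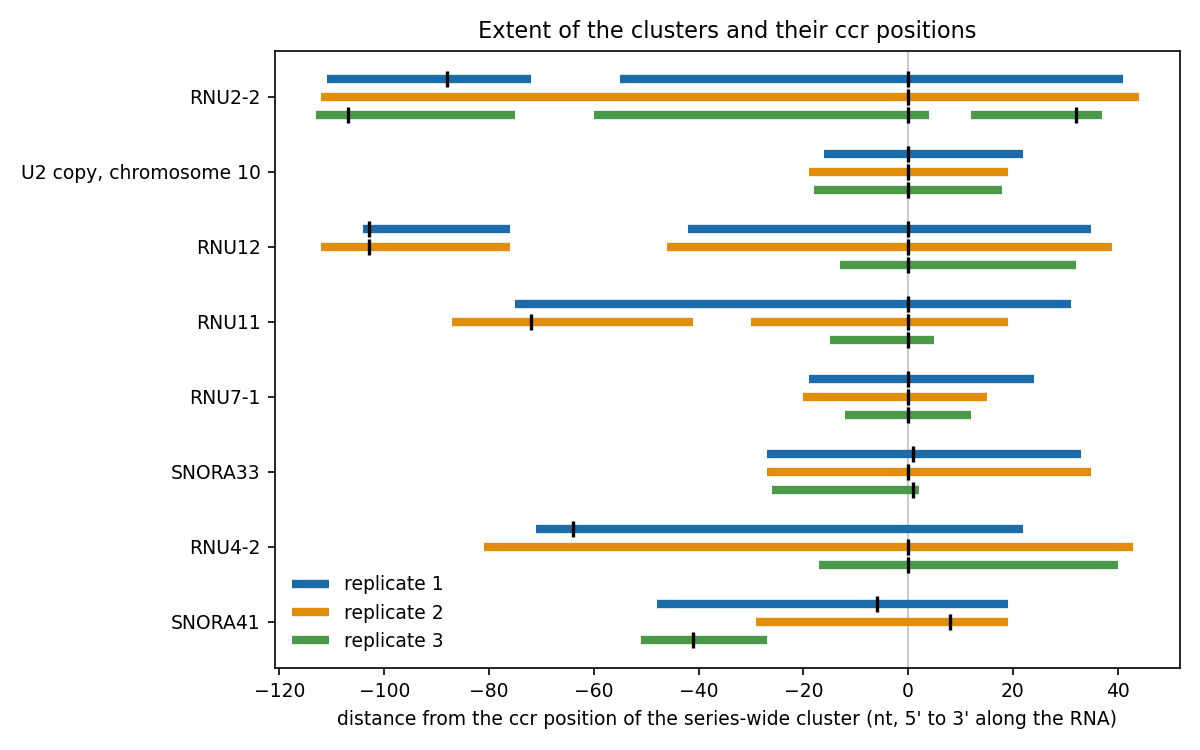
Extent of each cluster (coloured bars, in nt along the RNA from 5′ to 3′) and its ccr position (black ticks) for 8 RNAs in the 3 replicates, set to 0 at the ccr of the strongest series-wide cluster. RNU2-2, the U2 copy on chromosome 10, RNU12, RNU11 and RNU7-1 each have a tick at 0 in every replicate, whereas RNU4-2 and SNORA41 do not; ticks away from 0 on RNU2-2, RNU12 and RNU11 belong to their other clusters.

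In each replicate a larger share of snRNA and snoRNA clusters than of all others recurred in the other lists, but not on average when clusters with fewer than 3 distinct reads were left out. A cluster was counted as recurring when clusters of both other replicates shared at least 1 nt with it on the same strand. In replicates 1, 2 and 3, 21 of 135, 20 of 97 and 22 of 40 clusters of the set did so, or 15.6%, 20.6% and 55.0%. Over the whole lists it was 11.8%, 7.51% and 27.9%, and among all other clusters 11.8%, 7.44% and 27.7%. The difference was 14.8 percentage points ± 11.8, higher in 3 of 3 replicates (exact sign-flip permutation p = 0.25, adjusted p = 0.4). An overlap across all 3 lists is counted once from each list, so the 3 differences are not independent. The SD, the sign count and the p-value therefore do not measure agreement among separate observations. The difference was 8.80 when at least 50% of a cluster had to be overlapped. With replicate 1, 2 or 3 left out, and an overlap in the 1 list that remained as the criterion, it was 23.8, 20.9 and 25.3. Clusters of the set had a median of 5, 4 and 2 distinct reads, against 3, 2 and 2 for all others. With 3 or more distinct reads the shares were 19.3%, 28.4% and 77.8% in the set against 20.9%, 24.5% and 80.4% in all others, a mean difference of -0.114 percentage points. By family, 7 of 30, 7 of 28 and 7 of 15 H/ACA clusters recurred in both other replicates, or 23.3%, 25.0% and 46.7%. For C/D clusters it was 2 of 47, 2 of 17 and 2 of 3, or 4.26%, 11.8% and 66.7%. The number that recurred was thus the same in each replicate, while the number of clusters fell.

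**Figure D5:**
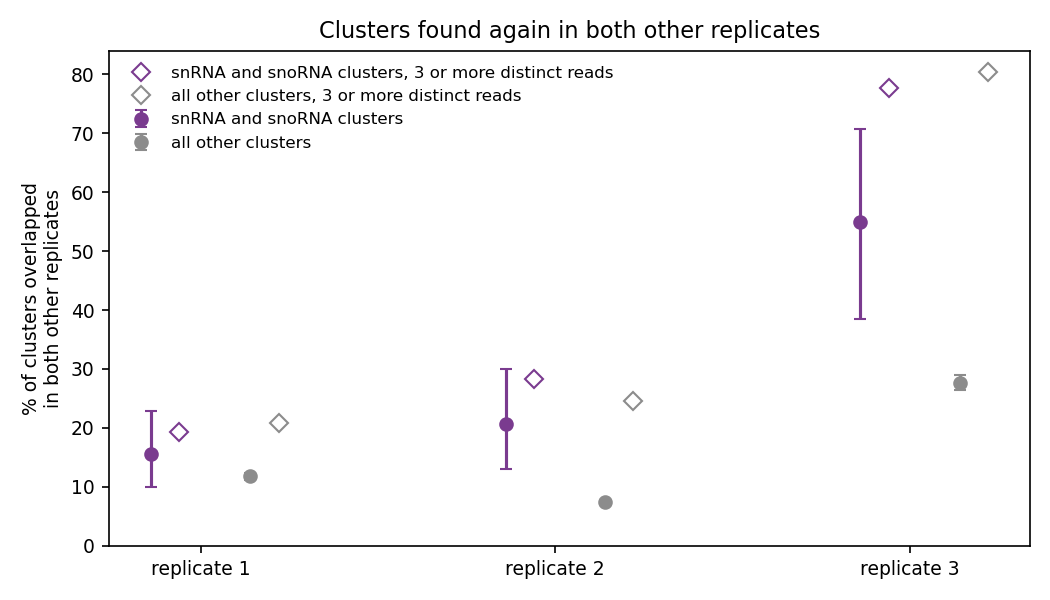
Percentage of the clusters of each replicate that were overlapped in both other replicates, for snRNA and snoRNA clusters and for all other clusters; bars are exact 95% binomial intervals, which cover counting error only, and open diamonds show clusters with 3 or more distinct reads. Filled points of the set lie above those of all others (55.0% against 27.7% in replicate 3), and the diamonds lie close together (77.8% against 80.4%).

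Summed over clusters, reads of the set had fewer copies each than those of other clusters in each replicate. In such sums clusters with many reads weigh most, and medians per cluster were not taken. There were 7.66, 5.03 and 14.02 reads per distinct read in replicates 1, 2 and 3, against 18.7, 17.9 and 33.96 in all other clusters, lower in 3 of 3 replicates (difference -14.6 ± 4.70, exact sign-flip permutation p = 0.25, adjusted p = 0.4). The median cluster of the set had 9, 7 and 22.5 conversions, and the median of all others 13, 5 and 18. On the log2 scale the difference of medians was 0.09 ± 0.55, positive in 2 of 3 replicates (exact sign-flip permutation p = 1, adjusted p = 1). Median lengths were 31, 32 and 28 nt in the set and 32, 29 and 27 nt in all others (difference 1.00 nt ± 2.00, exact sign-flip permutation p = 0.75, adjusted p = 0.857). The rule took clusters on the strand of the RNA. Opposite to an annotated snRNA or snoRNA there were 4, 8 and 3 clusters, with 86, 37 and 20 conversions.

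Exonic clusters were also counted on the mRNAs and noncoding hosts of these RNAs and on the mRNAs of their protein partners. The files list genes with a cluster, so the share of all genes with one in some replicate is not known here, and those counts are descriptions. Of 89 named snoRNAs and scaRNAs, 86 had another gene on the same strand, and for 28 it was a ribosomal protein gene or pseudogene, 13 of the 40 H/ACA and 15 of the 41 C/D box RNAs. Among 38 listed host genes, 30 had an exonic cluster outside the small RNA in some replicate and 7 in all 3, or 23.3% of those 30, where 14.4% of all genes with such a cluster had it in all 3. The 7 were EEF2, EIF4A1, GNB2L1/RACK1, RPL12, EIF4A2, RPL4 and NOP56. EEF2, an elongation factor mRNA that hosts SNORD37, had 474, 158 and 102 exonic conversions. The noncoding hosts GAS5, with 149 and 20, and SNHG1, with 151 and 14, had none in replicate 3.

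Of 15 proteins of snoRNPs and scaRNPs, 9 had an exonic mRNA cluster in some replicate and 2 in all 3, NOP56 with 22, 4 and 106 conversions and the nucleolar chaperone NOLC1 with 22, 11 and 8. Of 29 snRNP proteins and factors of snRNP assembly, 20 had one in some replicate and 4 in all 3. They were PRPF8, the core protein of the spliceosome, with 56, 27 and 15 conversions, EFTUD2, its GTPase partner, with 48, 24 and 27, and the U1 proteins SNRPA, with 51, 8 and 27, and SNRNP70, with 65, 8 and 8. These were 22.2% and 20.0% of the members with a cluster, against the 14.4% of all genes, and the difference was not tested. The exon annotation of a cluster may belong to another gene that overlaps it.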

How the data were processed

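Clusters were called with a program given as parclip, per the source field of the deposited files (version not given in the sources used here), with Bowtie2 2.1.0 and the hg19 build per the submitters' processing notes. The deposited counts are whole numbers of T-to-C conversions per cluster, not normalised, and the authors gave each cluster an estimated false discovery rate of 5. The deposited entropy score was not used for any result. Each replicate list covers 2 sequencing runs. The series-wide list by the authors is not a replicate and entered no test.

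The RNA families were assigned from gene symbols first, then snoRNA annotation, then repeat names. Unnamed copies were merged where clusters overlapped. Of 106 symbols, 101 matched the RefSeq table of GRCh38.p14, 5 of them as pseudogenes, and that table was used for names alone. Genes and pseudogenes were told apart here by a final P in the symbol alone. Shares are of each list's own total, which is not sequencing depth. Differences were taken within a replicate and tested by an exact permutation test that flips their signs (two-sided), with Benjamini-Hochberg adjustment over 8 tests (Python 3.11.15, numpy 2.4.6, scipy 1.17.1). The lists counted as replicates by their labels. Their counts on shared RNAs were not alike (chi-square 1376, 1112 and 386 for 60, 25 and 25 degrees of freedom), which copies of the same reads also raise and which does not show separate cultures. Exonic clusters of host genes left out tRNA and miRNA hairpin clusters, a choice made after they were seen. RNAs named were those with a cluster in all 3 replicates, ranked by conversions in the series-wide list, up to 6 a family or 8 for H/ACA and C/D box RNAs, and every minor spliceosomal RNA; others, and the ccr and conversion-per-read values, were added after their values were seen. The members and lists were chosen with earlier results of these data known. Overlap and membership steps were tested on simulated data. The values of 1 C/D box RNA with a cluster in all 3 replicates are not reported here. No sequence of the snRNAs and snoRNAs themselves was used here.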

Additional observations from a re-analysis of the deposited data

How the results depend on the processing

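Of 52 alternative values of the 8 comparisons, 7 turned the sign and 1 became 0. The recurrence difference was -0.114 percentage points among clusters with 3 or more distinct reads, 8.80 when at least 50% of a cluster had to be overlapped, and 20.9 to 25.3 without single replicates, where an overlap in the 1 list left was enough. For the median log2 conversions it was -0.38 with 3 or more distinct reads, and -0.10 to 0.40 without single replicates, negative without replicate 2 or 3. The length difference was -2.83 nt with 3 or more distinct reads, and 0 to 2.00 nt without single replicates. The H/ACA minus C/D share of clusters was -0.0117 percentage points with 3 or more distinct reads, and -0.0430 to 0.148 without single replicates, negative without replicate 3. The cause was not tested. The conversion shares (snRNA over snoRNA, major over minor, H/ACA over C/D) and the lower reads per distinct read kept their sign under each alternative tried. Major minus minor was 0.375 percentage points by distinct reads and 0.124 without the repeat annotation. By distinct reads the H/ACA minus C/D share was 0.0220 percentage points (exact sign-flip permutation p = 1), positive in 2 of 3 replicates. No sign-flip test can pass 0.05 with 3 replicates, so p-values say nothing of stability. Of 20 named RNA shares, 17 were higher by distinct reads than by conversions by more than their SD. Each comparison was already made within replicates, and the single group leaves no samples to pair between groups. Lists hold called clusters alone, so a missing RNA is not shown to be absent.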
